A study of Mus musculus with 8 samples.

Results

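Chemokines and their receptors were followed in mouse liver tumours and non-tumour liver by bulk RNA sequencing. Members were all genes whose symbol is Ccl, Cxcl, Ccr, Cxcr or Ackr followed by a number and at most 1 letter, together with Cx3cl1, Cx3cr1 and Xcr1. This gave 59 of the 54838 genes in the count tables: 23 CC ligands, 13 CXC ligands, the CX3C ligand Cx3cl1, 18 receptors and 4 atypical receptors. The 8 libraries came from 4 pieces labelled tumour and 4 labelled non-tumour, numbered 1 to 4 in each group. All pieces in both groups came from male wild-type C57BL/6J mice that had been injected intraperitoneally with the liver carcinogen diethylnitrosamine (DEN) on day 15. All had been fed a high-fat diet (HFD) plus SW, an abbreviation that is not spelled out, and were taken at a 30-week time point that the labels count in more than 1 way. The labels do not say which pieces came from the same mouse, so p-values measure only the spread between these samples, which may be technical. No liver without the carcinogen or the diet was analysed here.

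Chemokines are small secreted proteins that bind glycosaminoglycans on cell surfaces, form gradients and direct the migration of leukocytes. They act on receptors that span the membrane and couple to inhibitory G proteins, while the atypical receptors bind chemokines without this coupling and remove or relay them. In liver, Cxcl12 is known as a product of stromal and endothelial cells that holds cells bearing Cxcr4 in place. Cxcl1 attracts neutrophils, Ccl2 attracts monocytes bearing Ccr2, and Cxcl16 on sinusoidal cells retains lymphocytes bearing Cxcr6. Cxcl9, Cxcl10 and Cxcl11 are induced by interferons, and Cxcl9 and Cxcl10 attract T cells bearing Cxcr3.

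The stretches upstream of 4 CXC ligand genes are shown because these ligands carry the main patterns below: Cxcl9 and Cxcl10, neighbours that were both highest in tumours 2 and 4 and lowest in tumour 3, Cxcl1, the abundant ligand with the largest difference towards tumours, and Cxcl12, the most abundant member. Each is the 250 bases before the RefSeq start of the gene (GRCm38.p6), read on the gene's own strand. Capitals mark matches, on either strand, to an interferon response element (GAAANNGAAA), an NF-kB motif (GGGANNNNCC), a GC box (GGGCGG) or a TATA box (TATAAA).
Cxcl9: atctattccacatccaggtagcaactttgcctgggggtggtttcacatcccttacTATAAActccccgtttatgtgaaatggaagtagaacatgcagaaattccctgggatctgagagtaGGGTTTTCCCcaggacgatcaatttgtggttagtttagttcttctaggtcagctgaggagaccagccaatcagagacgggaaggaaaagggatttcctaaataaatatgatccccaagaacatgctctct
Cxcl10: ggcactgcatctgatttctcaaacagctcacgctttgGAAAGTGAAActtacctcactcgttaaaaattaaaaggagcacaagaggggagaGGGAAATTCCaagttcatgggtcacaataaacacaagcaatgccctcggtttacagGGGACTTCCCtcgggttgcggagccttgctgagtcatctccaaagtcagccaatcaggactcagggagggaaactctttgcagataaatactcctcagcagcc
Cxcl1: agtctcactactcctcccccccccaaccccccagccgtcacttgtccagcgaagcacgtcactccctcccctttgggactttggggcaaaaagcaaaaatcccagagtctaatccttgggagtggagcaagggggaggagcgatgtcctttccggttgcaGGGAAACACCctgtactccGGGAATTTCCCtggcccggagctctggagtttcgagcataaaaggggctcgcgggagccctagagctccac
Cxcl12: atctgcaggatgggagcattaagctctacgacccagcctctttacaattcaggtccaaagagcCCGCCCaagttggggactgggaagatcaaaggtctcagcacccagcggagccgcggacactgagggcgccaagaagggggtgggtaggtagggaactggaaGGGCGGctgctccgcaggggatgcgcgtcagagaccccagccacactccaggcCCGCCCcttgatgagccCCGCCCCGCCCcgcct

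The Cxcl9 window lies at chr5:92328080-92328329 and the Cxcl10 window at chr5:92348890-92349139, both on the minus strand. The Cxcl1 window lies at chr5:90890995-90891244 and the Cxcl12 window at chr6:117168285-117168534, both on the plus strand. The Cxcl10 window held the interferon element with its 5′ base 213 bases before the start, and NF-kB matches at 159 and 103 bases, the last of which reads as a match on both strands. The Cxcl9 window held an NF-kB match at 130 bases on the opposite strand and a TATA box at 195 bases. Cxcl1 had NF-kB matches at 90 and 71 bases, and 1 on the opposite strand at 70 bases that overlaps the match at 71. Cxcl12 had none of these 3 motifs but 5 GC boxes, at 187, 86, 33, 16 and 11 bases, the last pair sharing 1 base. GC content was 44.4% for Cxcl9, 48% for Cxcl10, 59.2% for Cxcl1 and 64.4% for Cxcl12, beside a median of 52.4% over all windows. Of 32851 windows in the table, 2.98% held the interferon element, 17.6% the NF-kB motif, 32.7% the GC box and 12.4% the TATA box. The table had windows for 44 of the 59 members, 21 of the 29 tested ones among them and not Cxcl11. The interferon element was found in 3 of the 44, Cxcl10, Cxcl14 and Ccl19, the NF-kB motif in 19, the TATA box in 14 and the GC box in 8. A match describes the letters of the window and says nothing of whether a factor bound there.

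Libraries held 15446690 reads in genes (non-tumour 3) to 21977052 (tumour 1). Levels are given as CPM, read counts brought to a common library size by TMM scaling, and a count of 0 allows up to 0.136 CPM (3 reads) in tumour 1 and 0.204 CPM in non-tumour 3, for counting error only. Tumours 2 and 4 were near-identical in their gene counts, and so were non-tumour 2, 3 and 4, since in these 4 pairs chi-square over its degrees of freedom was 1.58 to 3.28, and in the other 24 pairs 71.7 to 165. They were therefore counted as 1 sample each, called tumour 2/4 and non-tumour 2/3/4, which leaves 3 tumour and 2 non-tumour profiles. The library labelled tumour 3 stood apart from the other tumours. The fetal liver protein gene Afp was at 1.46 CPM in it, against 425 to 841 CPM in tumours 1, 2 and 4 and 4.7 to 19.4 CPM in the non-tumour libraries. Gpc3, which encodes another fetal liver protein, was at 1.2 CPM in it, against 163 to 192 CPM in the other tumours and 4.37 to 7.71 CPM in the non-tumour libraries. These genes go against its label as a tumour, and whether it held tumour tissue was not tested. Non-tumour 1 stood apart from the other non-tumour libraries in several sets of markers, among them those of Kupffer cells, the resident liver macrophages. The 7 Kupffer cell markers summed to 154 to 190 CPM in the tumour profiles. They summed to 493 CPM in non-tumour 1 and 164 CPM in non-tumour 2/3/4, and none was at 0 reads. Cd163 among them differed little, at 9.32 CPM in non-tumour 1 and 8.52 CPM in non-tumour 2/3/4. Pan-leukocyte markers summed to 100 CPM in non-tumour 1 and 41.4 CPM in non-tumour 2/3/4. Markers of sinusoidal and continuous endothelium summed to 268 and 112 CPM in non-tumour 1, against 134 and 59.7 CPM in non-tumour 2/3/4. Stellate cell and fibroblast markers differed less, at 252 and 230 CPM. Hepatocyte markers were abundant in every library, with albumin (Alb) at 73218 CPM or more.

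Of the 59 members, 54 had at least 1 read and 29 had enough reads to be tested, namely 8 CC ligands, 8 CXC ligands, Cx3cl1, 8 receptors and all 4 atypical receptors. The other 25 with reads had 1 to 47 reads over the 8 libraries together. Ccl1, Ccl21a, Ccl21b, Ccl26 and Ccl27b had 0 reads. Ccl21 and Ccl27 genes have near-identical copies in the mouse genome and the authors left multi-mapping reads uncounted, which makes the levels of these genes, Ccl27a included, uncertain.

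The chemokine pool of these livers was dominated by Cxcl12 and Ccl9. Levels per kilobase use the length of all annotated exons of a gene, not of the transcripts made, so they compare genes only roughly. On this scale Cxcl12 averaged 25 CPM per kb over the 5 profiles. Ccl9, a CC chemokine of mouse macrophages that acts on Ccr1, averaged 17.3 CPM per kb. Cxcl9 followed at 7.91, Cxcl13, a B cell attractant that acts on Cxcr5, at 4.9, Cxcl1 at 4.09, Ccl6 at 2.98, Cxcl16 at 2.91 and Cxcl10 at 2.26 CPM per kb. Signalling receptors stood lower, with Cxcr4 the highest of them at 0.651 CPM per kb and Cxcr5 the lowest of the tested ones at 0.154 CPM per kb. Cxcl12 took 44% to 69.6% of all member reads in the tumour libraries and 60.3% to 68.9% in the non-tumour libraries. All member reads together came to 304 to 324 CPM in tumour libraries, against 338 to 449 CPM in non-tumour libraries.

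**Figure D1:**
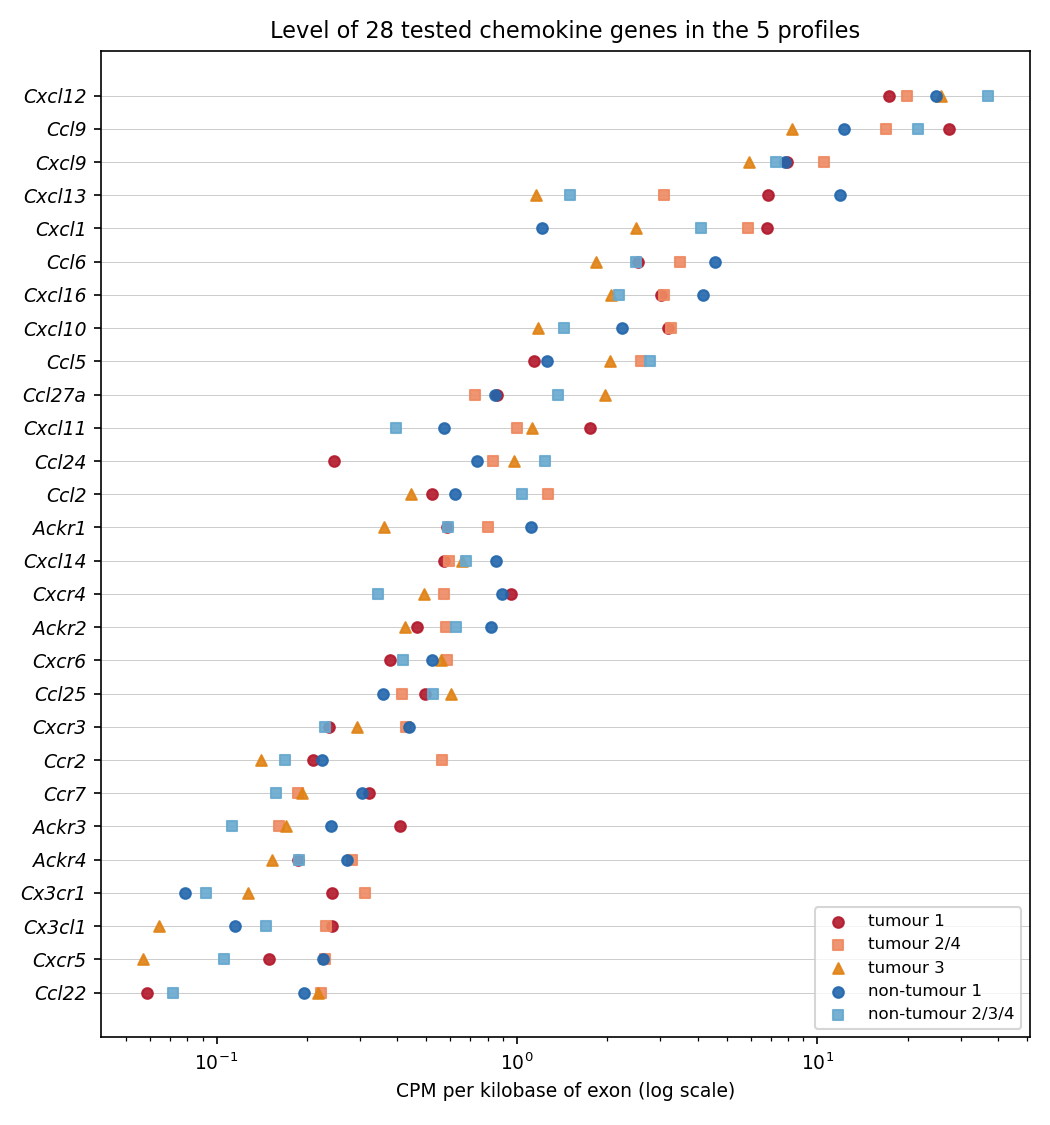
Level of 28 of the 29 tested chemokine and receptor genes in CPM per kilobase of exon on a log axis, ordered by the mean. Each point is 1 of the 5 profiles, 3 tumour and 2 non-tumour; Cxcl12 and Ccl9 lie to the right, most receptors under 1 CPM per kb, and the points of Cxcl13 are spread over a 10.3-fold range.

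Cxcl12 was the top member per kilobase in 4 of the 5 profiles, and in tumour 1 it came after Ccl9, at 17.4 CPM per kb for Cxcl12 and 27.5 CPM per kb for Ccl9. That order depends on the exon lengths used, since in CPM Cxcl12 was above Ccl9 in tumour 1, at 143 and 83.8 CPM. The ratio of Ccl9 to Cxcl12 per kilobase was 1.58 in tumour 1, 0.851 in tumour 2/4 and 0.318 in tumour 3, and 0.494 in non-tumour 1 and 0.586 in non-tumour 2/3/4. This ratio ranged more widely over the 3 tumour profiles than over the 2 non-tumour profiles, but a range over more profiles tends to be wider. The lowest ratio was that of tumour 3, whose Afp and Gpc3 levels go against its label.

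Setting tumours against non-tumour liver asks which genes of the chemokine system differ between them. No member passed the test over the 5 profiles. The quasi-likelihood test of edgeR, adjusted by the Benjamini-Hochberg method, called 0 of the 29 members and 0 of all 13650 genes tested (0%), with adjusted p-values of 0.995 to 1 for the members. Over all genes, 451 had an unadjusted p under 0.05 (3.3%) and 2 of the 29 members did, Cxcl11 and Cx3cr1. Among other tools run on these profiles, DESeq2 called 2 genes, neither of them a member, of 577 at an unadjusted p under 0.05, and voom of limma called 0 genes, with 411 at an unadjusted p under that limit. The log2 fold change was above 0 for 16 members and below 0 for 13, with a median of 0.04 beside 0.01 over all genes tested. The median size of the log2 fold change was 0.33 for members and 0.20 for all genes tested. The balance of directions changed with the profile left out. Without non-tumour 1, 24 members were above 0 and 11 below, with a median of 0.29 beside 0.04 over all genes tested. Without tumour 3 the counts were 20 and 11 (median 0.12), and without tumour 2/4 they were 11 and 16 (median -0.17).

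**Figure D2:**
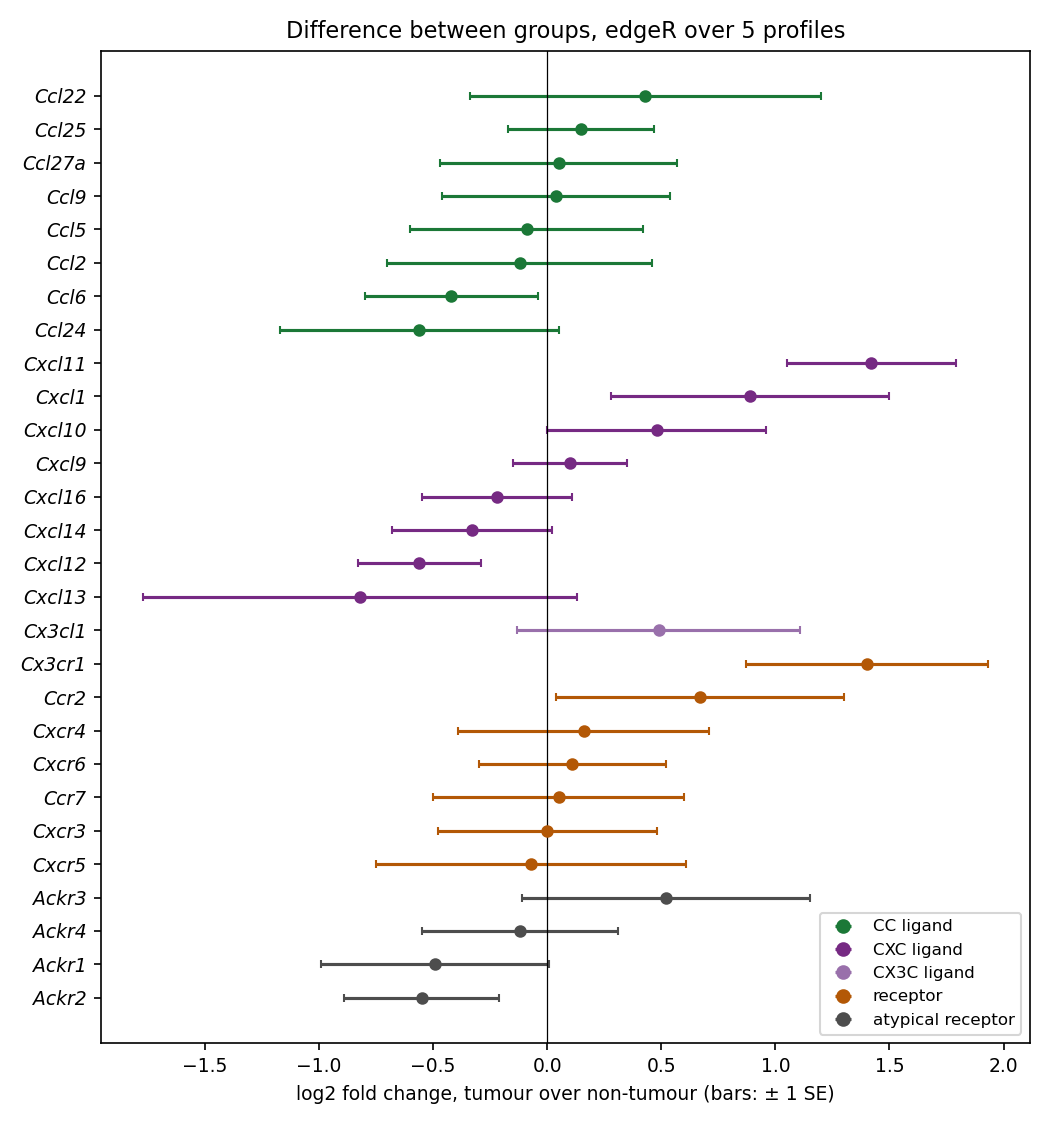
Log2 fold change of tumour over non-tumour for 28 of the 29 tested members, grouped by role, from edgeR over the 5 profiles. Points are estimates and bars 1 SE to each side; Cxcl11 (1.42) and Cx3cr1 (1.40) lie farthest to the right, Cxcl13 (-0.82) farthest to the left with the widest bar, and no member passed the adjusted test.

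Tumour and non-tumour profiles did not overlap for 4 of the 29 members. Cxcl11 and Cx3cr1 were higher in every tumour profile (6.9% of members, against 10% of all genes tested), and Ackr2 and Cxcl14 were lower in every tumour profile (6.9% of members, against 8.32% of all genes tested). These shares are at or under the background. Without tumour 3 the members whose groups did not overlap numbered 6 higher and 3 lower, beside 23.2% and 17.5% of all genes, and without non-tumour 1 they numbered 6 higher and 5 lower, beside 23.2% and 20.7% of all genes. Without non-tumour 2/3/4 they numbered 4 higher and 7 lower, beside 24.4% and 24.8% of all genes. Without tumour 1 they numbered 4 and 2, beside 14.8% and 11.7%, and without tumour 2/4 they numbered 2 and 6, which is 6.9% and 20.7% of members beside 15.1% and 13.5% of all genes.

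Chemokine genes varied widely between profiles, within as well as between the groups. The highest profile was 2.77 times the lowest in the median member, and 1.66 times in the median of all genes tested. In 22 of the 29 members this ratio was at least 2, against 32.8% of all genes tested. The part of counting error in this spread was not tested. Among the 8 members with a mean of 5 CPM or more, the log2 ratio between tumours 2 and 4 was at most 0.14 in size, and at most 0.60 between any pair of non-tumour 2, 3 and 4. Tumour 2/4 had the highest level of 10 members and the lowest of 1, beside 12.3% and 12.2% of all genes tested. Tumour 3 had the highest level of 2 members and the lowest of 13, beside 29.9% and 30.6% of all genes tested.

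**Figure D3:**
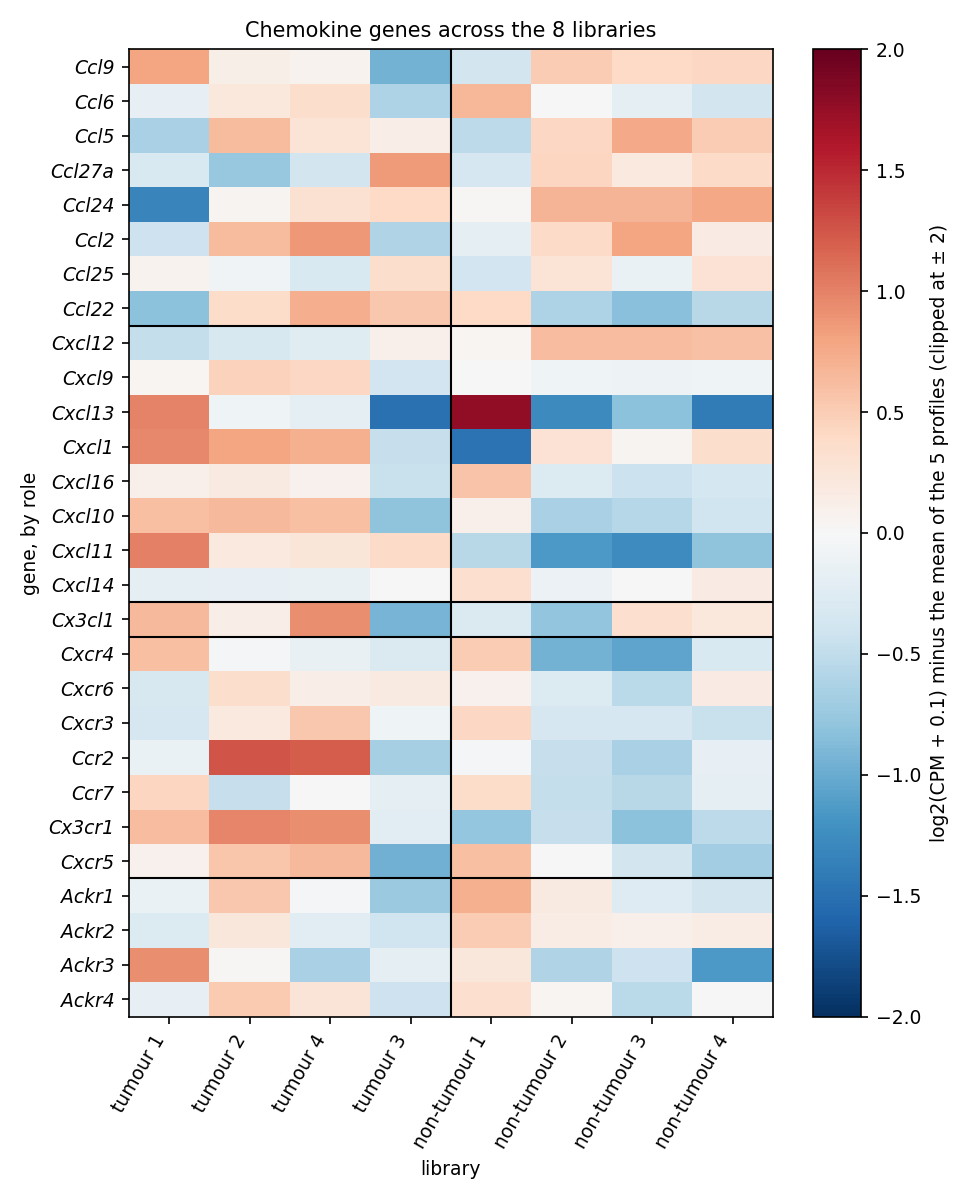
Level of 28 of the 29 tested members in each of the 8 libraries as log2(CPM + 0.1) minus the mean of the 5 profiles of that gene, clipped at ± 2, with genes grouped by role and tumour libraries to the left of the vertical line. Tumours 2 and 4, and non-tumour 2, 3 and 4, show similar colours for abundant members and differ more for some low ones such as Cx3cl1. Cxcl13 is highest in non-tumour 1, and Ccr2 and Cx3cr1 are highest in tumours 2 and 4.

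Among the CXC ligands, Cxcl12 had 143, 158, 166 and 211 CPM in tumours 1, 2, 4 and 3, against 204 CPM in non-tumour 1 and 304, 304 and 297 CPM in non-tumour 2, 3 and 4. Tumours 1, 2 and 4 lay under every non-tumour library, and tumour 3 lay slightly above non-tumour 1, so the groups overlapped at that point. Cxcl12 averaged 172 ± 35.3 CPM in tumours, against 253 ± 69.4 CPM in non-tumour tissue (SD, n = 3 and n = 2 profiles), a log2 fold change of -0.56 (SE 0.27, unadjusted p = 0.0821 in edgeR). In bulk tissue, fewer cells of a type and less RNA per cell cannot be told apart. Stellate cell and fibroblast markers, 7 genes with none at 0 reads, summed to 236 to 263 CPM in tumour profiles and 230 to 252 CPM in non-tumour profiles, and 6 markers of sinusoidal endothelium to 155 to 180 CPM and 134 to 268 CPM. Dcn made up the largest share of the stellate cell sum. Of these 7 genes 5 had a log2 fold change above 0 and 2 below, with a median of 0.11. Lrat, the retinol-storage enzyme of stellate cells, was lower in every tumour profile, at 10.3, 10.7 and 13.0 CPM in tumour 1, tumour 2/4 and tumour 3, against 18.6 and 17.2 CPM in the non-tumour profiles (log2 fold change -0.67, unadjusted p = 0.00801 in edgeR). The part of these cells in the Cxcl12 level was not tested. The estimate was -0.74 without tumour 3, -0.83 without non-tumour 1 and -0.25 without non-tumour 2/3/4.

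Cxcl11, the least abundant of the 3 interferon-induced Cxcr3 ligands per kilobase, had 6.64, 3.73, 3.85 and 4.24 CPM in tumours 1, 2, 4 and 3, against 2.17, 1.40, 1.29 and 1.81 CPM in non-tumour 1, 2, 3 and 4. Every tumour library was above every non-tumour library, and tumour 1 was the highest of all. The reads behind these values numbered 67 to 146 in tumour libraries and 19 to 43 in non-tumour libraries. Cxcl11 averaged 4.89 ± 1.53 CPM in tumours, against 1.83 ± 0.472 CPM in non-tumour tissue (SD, n = 3 and n = 2 profiles), a 2.67-fold ratio of means and a log2 fold change of 1.42 (SE 0.37, unadjusted p = 0.00805, adjusted p = 0.995 in edgeR). Leaving out any 1 of the 5 profiles gave 1.13 to 1.68. The gene (chromosome 5, 92359544 to 92365485, GRCm38) shares 41.7% of its exon bases with Gm2673 on the opposite strand, which had 0 to 2 reads in a library.

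Its neighbours Cxcl10 and Cxcl9 had smaller estimates, and their groups overlapped. Cxcl10 had 7.19, 7.46, 7.20 and 2.66 CPM in tumours 1, 2, 4 and 3, against 5.04, 2.97, 3.14 and 3.55 CPM in non-tumour 1, 2, 3 and 4. Tumours 1, 2 and 4 were above all non-tumour libraries, while tumour 3 was below all of them. The log2 fold change of Cxcl10 was 0.48 (SE 0.48) over the 5 profiles and 0.82 without tumour 3. Cxcl9 had 24.0, 32.3, 31.3 and 17.9 CPM in tumours 1, 2, 4 and 3, against 23.6, 22.1, 21.9 and 22.1 CPM in non-tumour 1, 2, 3 and 4. Tumours 2 and 4 were the highest, tumour 3 the lowest, and tumour 1 lay close to non-tumour 1, for a log2 fold change of 0.10 (SE 0.25) that was -0.13 without tumour 2/4. The 3 genes lie side by side on the minus strand of chromosome 5, with 18558 bases between Cxcl9 and Cxcl10 and 10654 bases between Cxcl10 and Cxcl11, and in tumour 3 they did not move together: Cxcl9 and Cxcl10 were at their lowest and Cxcl11 was not. The ratio of Cxcl10 to Cxcl11 in CPM was 1.08 in tumour 1, 1.94 in tumour 2/4 and 0.627 in tumour 3, and 2.33 in non-tumour 1 and 2.15 in non-tumour 2/3/4.

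Cxcl1, a neutrophil attractant that acts on Cxcr2, had 12.7, 11.3, 10.7 and 4.69 CPM in tumours 1, 2, 4 and 3, against 2.27, 7.98, 6.75 and 8.29 CPM in non-tumour 1, 2, 3 and 4. Non-tumour 1 was the lowest library and tumour 3 lay between it and the other non-tumour libraries, so the groups overlapped. The log2 fold change of Cxcl1 was 0.89 (SE 0.61, unadjusted p = 0.189 in edgeR), 0.29 without non-tumour 1 and 1.20 without tumour 3. The relatives of Cxcl1 on the same stretch of chromosome 5 had few reads. Cxcl2 had 1 to 7 reads in a library, and Cxcl3, Cxcl5 and Cxcl15 had 3, 2 and 1 reads over all libraries. Cxcr2, the receptor of Cxcl1, had 1 to 8 reads in a library, and the 6 neutrophil markers summed to 1.84 to 4.05 CPM in tumour profiles and 4.09 to 5.09 CPM in non-tumour profiles, with Ly6g at 0 reads.

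Cxcl13, a B cell attractant, had 7.92, 3.68, 3.45 and 1.33 CPM in tumours 1, 2, 4 and 3, against 13.7, 1.57, 2.18 and 1.43 CPM in non-tumour 1, 2, 3 and 4. Non-tumour 1 was the highest library and tumour 3 the lowest, with the other non-tumour libraries close to tumour 3. The log2 fold change of -0.82 (SE 0.95) became 1.30 without non-tumour 1, so its sign rested on that library. Marco, a scavenger receptor of macrophages among the Kupffer cell markers, had its highest level in the same library, at 32.3, 11.1 and 2.85 CPM in tumour 1, tumour 2/4 and tumour 3, against 80.5 CPM in non-tumour 1 and 6.42 CPM in non-tumour 2/3/4. The order of the tumours differed among the Kupffer cell markers. In tumour 1, tumour 2/4 and tumour 3 Clec4f was at 48.9, 56.9 and 63.5 CPM and Cd163 at 2.46, 5.24 and 7.85 CPM. Both were lowest in tumour 1, where Marco and Cxcl13 were highest among the tumours. The part of Kupffer cells in the Cxcl13 level was not tested.

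**Figure D4:**
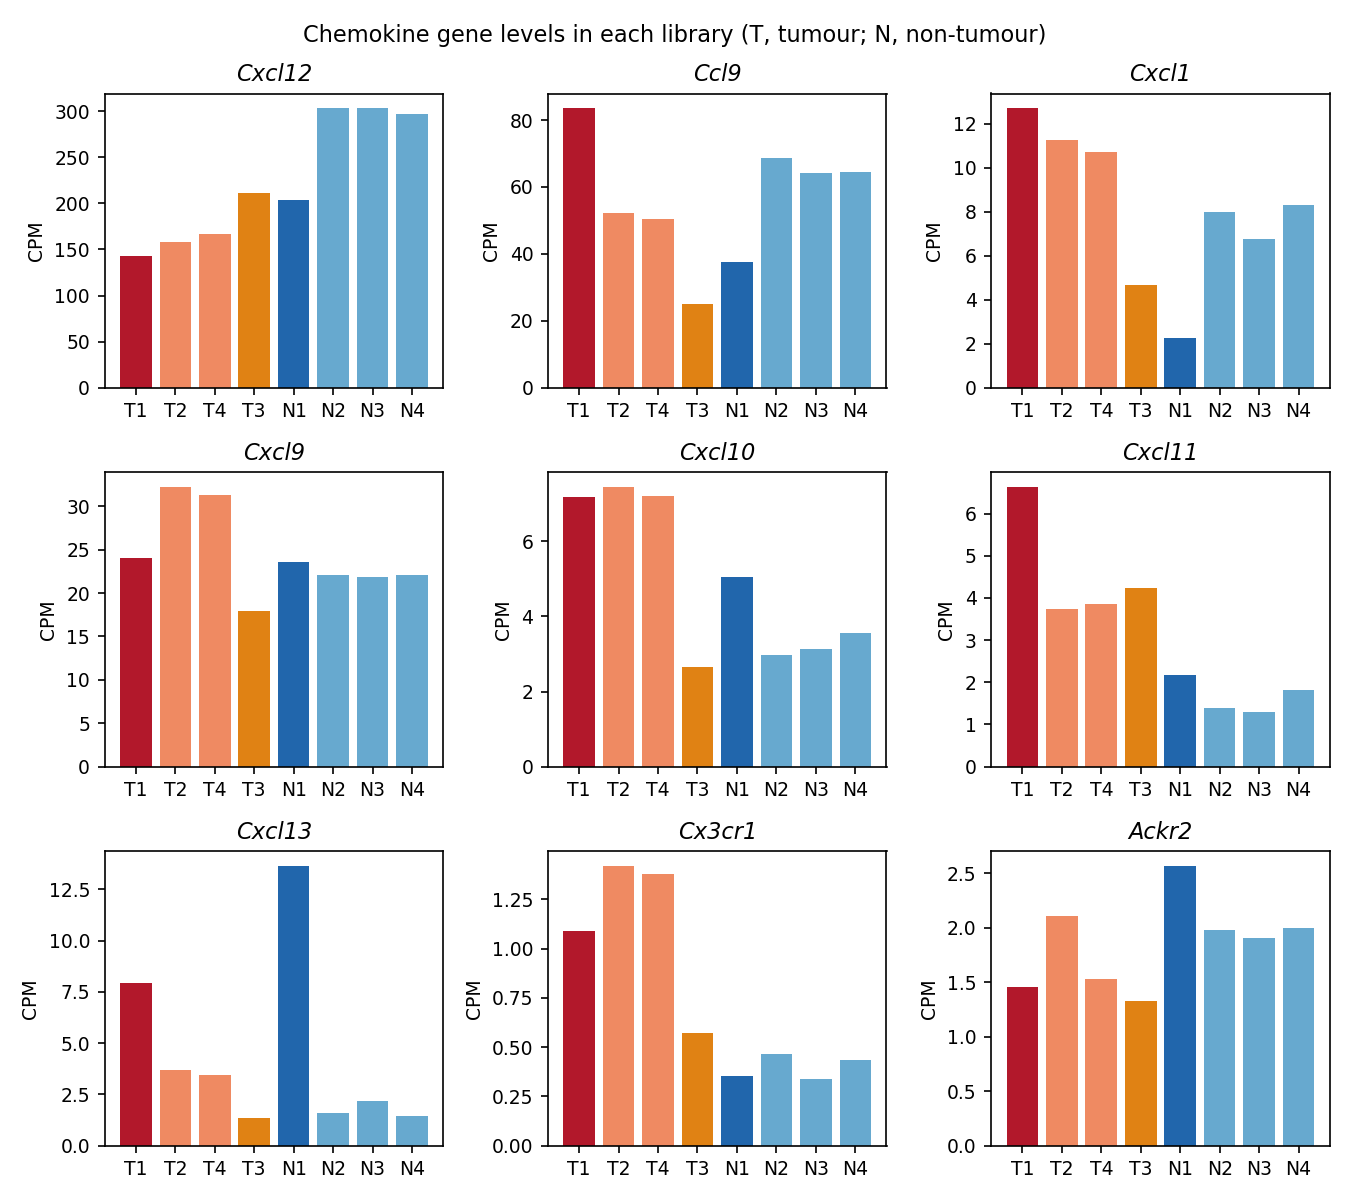
CPM of 9 members in each library, tumours 1, 2, 4 and 3 (reds and orange) to the left of non-tumour 1 to 4 (blues); libraries with the same colour are near-identical and count as 1 profile. Cxcl11 is higher in all 4 tumour libraries, Cxcl10 and Cxcl1 are higher in tumours 1, 2 and 4 but not in tumour 3, and Cxcl13 peaks in non-tumour 1.

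Cxcl16, a chemokine made in a membrane-bound form, had 9.10, 9.66, 9.07 and 6.21 CPM in tumours 1, 2, 4 and 3, against 12.6, 6.99, 6.27 and 6.61 CPM in non-tumour 1, 2, 3 and 4. It was highest in non-tumour 1 and lowest in tumour 3, with the other tumours between non-tumour 1 and the remaining non-tumour libraries (log2 fold change -0.22, SE 0.33, and 0.29 without non-tumour 1). Cxcl14, an attractant of monocytes and dendritic cells whose receptor is debated, had 1.05, 1.08, 1.08 and 1.20 CPM in tumours 1, 2, 4 and 3, against 1.56, 1.11, 1.23 and 1.37 CPM in non-tumour 1, 2, 3 and 4. Its profiles did not overlap, although tumour 3 was above non-tumour 2 library by library, and its log2 fold change of -0.33 (SE 0.35) was smaller than its error. Cxcl17 was not tested, having 24 reads in tumour 1 and 0 to 4 reads in every other library.

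Among the CC ligands 4 tested members had a log2 fold change above 0 and 4 below, with a median of -0.03, and no CC ligand had groups that did not overlap. Ccl9 had 83.8, 52.3, 50.6 and 25.0 CPM in tumours 1, 2, 4 and 3, against 37.4, 68.8, 64.1 and 64.5 CPM in non-tumour 1, 2, 3 and 4. Tumour 1 was the highest and tumour 3 the lowest library, so the non-tumour values lay inside the range of the tumours, with a log2 fold change of 0.04 (SE 0.50) that was -0.32 without non-tumour 1 and -0.44 without tumour 1. Ccl6, which lies 9245 bases from Ccl9 on chromosome 11 and is also a macrophage chemokine of the mouse, had 4.55, 5.93, 6.56 and 3.29 CPM in tumours 1, 2, 4 and 3, against 8.16, 5.06, 4.43 and 3.93 CPM in non-tumour 1, 2, 3 and 4. It was highest in non-tumour 1, where Ccl9 was at its lowest among non-tumour libraries (Ccl6 log2 fold change -0.42, SE 0.38, and 0.06 without non-tumour 1). The ratio of Ccl9 to Ccl6 in CPM was 18.4 in tumour 1, 8.24 in tumour 2/4 and 7.59 in tumour 3. It was 4.59 in non-tumour 1 and 14.7 in non-tumour 2/3/4.

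Ccl24, an eosinophil attractant that acts on Ccr3, had 0.319, 0.981, 1.18 and 1.27 CPM in tumours 1, 2, 4 and 3, against 0.958, 1.57, 1.57 and 1.68 CPM in non-tumour 1, 2, 3 and 4. Tumour 1 was the lowest library, with 7 reads, and tumours 2, 4 and 3 overlapped with non-tumour 1 (log2 fold change -0.56, SE 0.61). Ccl2 ran from 0.507 CPM in tumour 3 to 1.58 CPM in tumour 4, and from 0.706 to 1.5 CPM in non-tumour libraries, with a log2 fold change of -0.12 (SE 0.58). Ccl5, a T cell and macrophage attractant, averaged 1.85 ± 0.703 CPM in tumours, against 1.94 ± 1.03 CPM in non-tumour tissue (SD, n = 3 and n = 2 profiles). Of the remaining tested CC ligands, Ccl25 had a log2 fold change of 0.15 (SE 0.32), Ccl27a of 0.05 (SE 0.52) and Ccl22 of 0.43 (SE 0.77), the last on 2 to 12 reads in a library. The 10 CC ligands with too few reads to test were led by Ccl4 with 43 and Ccl3 with 27 reads over the 8 libraries, and Ccl7, a second ligand of Ccr2, had 20.

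Among the receptors 6 of 8 tested members had a log2 fold change above 0, beside 52.2% of all genes tested, with a median of 0.08. Cxcr3 was 1 of these 6 although its estimate was 0.00, and the signs of several receptors changed with the profile left out. Cx3cr1, the receptor for Cx3cl1 on monocytes and tissue macrophages, had 1.09, 1.42, 1.38 and 0.57 CPM in tumours 1, 2, 4 and 3, against 0.353, 0.466, 0.341 and 0.436 CPM in non-tumour 1, 2, 3 and 4. Every tumour library was above every non-tumour library, tumour 3 by the least, on 9 to 29 reads in tumour libraries and 5 to 8 in non-tumour libraries. Cx3cr1 averaged 1.02 ± 0.42 CPM in tumours, against 0.384 ± 0.0435 CPM in non-tumour tissue (SD, n = 3 and n = 2 profiles), a log2 fold change of 1.40 (SE 0.53, unadjusted p = 0.0358, adjusted p = 0.995 in edgeR). Leaving out any 1 profile gave 1.09 to 1.66. Its ligand Cx3cl1 ran from 0.253 CPM in tumour 3 to 1.18 CPM in tumour 4, and from 0.291 to 0.750 CPM in non-tumour libraries, and was lowest in tumour 3 (log2 fold change 0.49, SE 0.62).

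Ccr2, the monocyte receptor for Ccl2, had 1.41, 3.87, 3.75 and 0.950 CPM in tumours 1, 2, 4 and 3, against 1.51, 1.11, 0.954 and 1.37 CPM in non-tumour 1, 2, 3 and 4. Only tumours 2 and 4, which count as 1 sample, stood above the non-tumour libraries, and the log2 fold change of 0.67 (SE 0.63) was -0.17 without them. The list of monocyte and recruited macrophage markers, which holds Ccr2 among its 9 genes, summed to 259 CPM in tumour 1, 151 CPM in tumour 2/4 and 35 CPM in tumour 3, and to 48.2 and 52.2 CPM in the non-tumour profiles, with no marker at 0 reads in all libraries. Most of that sum came from Spp1 and Cd9, which other cell types also express. Spp1 was at 205, 101 and 19.4 CPM in tumour 1, tumour 2/4 and tumour 3, against 22.4 CPM in non-tumour 1 and 27.8 CPM in non-tumour 2/3/4. Cd9 was at 49.7, 42.3 and 12.8 CPM in the same tumour profiles, against 21.8 and 21.3 CPM in the non-tumour profiles. The sum is therefore no measure of monocytes alone, and the part of these cells in the levels of Ccr2 and Cx3cr1 was not tested.

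The receptors of the abundant CXC ligands were low in both groups. Cxcr4, a receptor of Cxcl12, had 1.73, 1.08, 0.986 and 0.887 CPM in tumours 1, 2, 4 and 3, against 1.61, 0.524, 0.477 and 0.873 CPM in non-tumour 1, 2, 3 and 4. Tumour 1 and non-tumour 1 were the highest, so the groups overlapped (log2 fold change 0.16, SE 0.55, and -0.18 without tumour 1). Cxcr6 lay between 0.728 and 1.23 CPM in tumour libraries and between 0.613 and 1.06 CPM in non-tumour libraries (0.11, SE 0.41). Cxcr3 lay between 0.410 and 0.838 CPM in tumour libraries and between 0.374 and 0.756 CPM in non-tumour libraries (0.00, SE 0.48). Cxcr5, found on B cells, lay between 0.190 and 0.789 CPM in tumour libraries and between 0.249 and 0.756 CPM in non-tumour libraries (-0.07, SE 0.68), and was highest in tumour 2/4 and lowest in tumour 3. None of these receptors of lymphocytes differed beyond its error, with 3 to 38 reads behind each value. The 8 T cell markers summed to 4.78 to 6.52 CPM in tumour profiles and 7.91 to 10.2 CPM in non-tumour profiles, and the 5 B cell markers to 5.32 to 5.78 CPM and 3.55 to 5.74 CPM, with none at 0 reads in all libraries. Ccr7, which guides dendritic cells to lymph nodes, had a log2 fold change of 0.05 (SE 0.55). Ccr1, the receptor for Ccl9 and Ccl6, had 29 reads over the 8 libraries, against 8229 for Ccl9, and was 1 of 10 receptors with too few reads to test. Xcr1, a marker of cross-presenting dendritic cells, had 2 to 11 reads in a library.

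**Figure D5:**
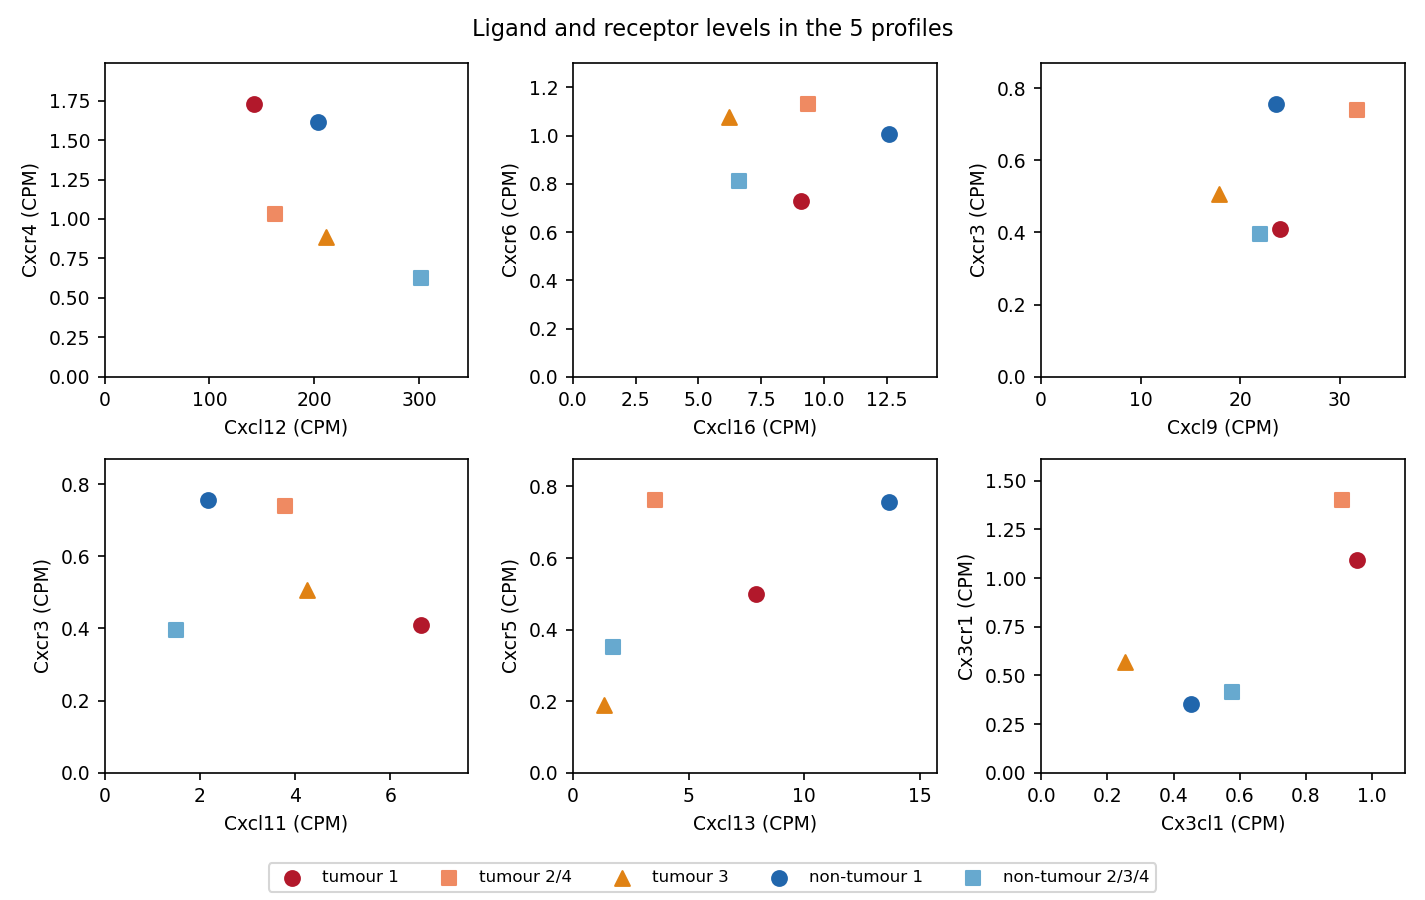
CPM of a receptor against CPM of its ligand in the 5 profiles, for 6 ligand and receptor pairs. Each point is 1 profile and the axes start at 0; Cxcr4 is highest in tumour 1, where Cxcl12 is lowest, and Cx3cr1 is higher in the 3 tumour profiles at any level of Cx3cl1.

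Set side by side with their ligands in the plot of receptor against ligand levels, the receptors did not follow one order. Cxcl12 was lowest in tumour 1 (143 CPM) and highest in non-tumour 2/3/4, and Cxcr4 was highest in tumour 1 and lowest in non-tumour 2/3/4. Cxcl13 and Cxcr5 were both lowest in tumour 3. With 5 profiles no correlation is given.

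The atypical receptors were all tested, with 1 of 4 above 0 and a median log2 fold change of -0.31. Ackr2, a scavenger of inflammatory CC chemokines, had 1.46, 2.11, 1.53 and 1.33 CPM in tumours 1, 2, 4 and 3, against 2.57, 1.98, 1.91 and 2.00 CPM in non-tumour 1, 2, 3 and 4. The tumour profiles lay under both non-tumour profiles, although tumour 2 by itself was above non-tumour 2, 3 and 4. Ackr2 averaged 1.53 ± 0.254 CPM in tumours, against 2.27 ± 0.431 CPM in non-tumour tissue (SD, n = 3 and n = 2 profiles), a log2 fold change of -0.55 (SE 0.34, unadjusted p = 0.149 in edgeR). Ackr3, which scavenges Cxcl12, had 1.36, 0.687, 0.394 and 0.57 CPM in tumours 1, 2, 4 and 3, against 0.806, 0.407, 0.477 and 0.249 CPM in non-tumour 1, 2, 3 and 4. It was highest in tumour 1, on 30 reads, and the other values overlapped (log2 fold change 0.52, SE 0.63, and -0.05 without tumour 1). Ackr1, a chemokine-binding receptor of venules and red cells, had a log2 fold change of -0.49 (SE 0.50), and it shares 25.7% of its exon bases with Cadm3 on the same strand, so its level is uncertain. Ackr4, a scavenger of Ccl19, Ccl21 and Ccl25, had a log2 fold change of -0.12 (SE 0.43). It shares 8.9% of its exon bases with Acad11 on the opposite strand, which had 3852 to 5731 reads in a library. Whether the library kit keeps strand is not given, so the level of Ackr4 is uncertain. Other members share exon bases on the opposite strand too, such as Cxcl16 (18.3%, with Zmynd15) and Cxcr5 (3.3%, with Bcl9l).

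Which members passed depended on how the near-identical libraries and the 2 libraries that stood apart were treated, and on the filter on low counts. With all 8 libraries taken as separate replicates edgeR called 56 of 12880 genes (0.435%) and 0 of 23 members, 3 of which had an unadjusted p under 0.05. Over the profiles without tumour 3 it called 5 of 13990 genes (0.0357%) and 0 of 31 members, 4 of which had an unadjusted p under 0.05. With 7 separate libraries and tumour 3 left out, 5 members passed, on a background of 13.6% of 13211 genes. Cx3cr1 was higher (log2 fold change 1.68, adjusted p = 0.00672 in edgeR), as were Cxcl11 (1.49, 0.0121), Cxcl10 (0.97, 0.0142) and Cxcl9 (0.38, 0.0483), and Cxcl12 was lower (-0.83, 0.0104). With non-tumour 1 left out instead, Cxcl11 (1.62) and Cxcl12 (-0.83) passed, with an adjusted p of 0.017 each, on a background of 5.85% of 13100 genes. These fits count libraries that were near-identical as separate replicates, so their p-values are too small. Over the 5 profiles with no filter on low counts, the errors were estimated differently. The SE of Cxcl13 was 0.33, against 0.95 with the filter, and that of Cxcl11 was 0.40, against 0.37. The p-values of this setting are therefore not on the same footing as those of the main test. In it Cxcl11 alone of the members passed (adjusted p = 0.0324 in edgeR), on a background of 1.74% of 24531 genes. Its adjusted p over all settings tried ran from 0.0121 to 1.

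Genes around the chemokine system, taken from lists of signalling components, inducers and processing enzymes, gave 0 calls in edgeR over the 5 profiles, and 0 in DESeq2 and voom. Without the filter on low counts edgeR called 2 signalling genes, Grk3 and Itgal, and 2 processing genes, Mmp12 and Ndst1 (named after their values were seen), beside 1.74% of all genes. An unadjusted p under 0.05 in edgeR was found for 0 signalling genes and 1 processing gene. Of 48 tested signalling genes 8 had a log2 fold change above 0 and 40 below, with a median of -0.18, but without non-tumour 1 the counts were 34 and 14 and the median was 0.13, so the direction rested on that library. The lowest unadjusted p-values among them were those of Grk3, a receptor kinase (log2 fold change 1.37, SE 0.57), and Itgal, the integrin chain of LFA-1 (-1.04, SE 0.50). Itgal stood at 24.0 CPM in non-tumour 1 and at 6.02 to 8.24 CPM in every other profile. Pan-leukocyte markers, 5 genes, summed to 42.8 to 55.2 CPM in tumour profiles, and to 100 CPM in non-tumour 1 and 41.4 CPM in non-tumour 2/3/4, with none at 0 reads. Their part in the signalling list was not tested.

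Of 30 tested inducers of chemokine transcription 15 had a log2 fold change above 0 and 15 below. Without non-tumour 1 the counts were 22 and 8 (median 0.22), and without tumour 2/4 they were 8 and 21 (median -0.09). Tlr4, the receptor for lipopolysaccharide, had a log2 fold change of -1.15 (SE 0.53) and was highest in non-tumour 1. Ifng, which encodes interferon gamma, had at most 1 read in a library. Of 15 tested genes for proteases and proteoglycans that cleave or bind chemokines 7 were above 0 and 8 below. Mmp12, the macrophage elastase, had 1.46, 6.39 and 0.443 CPM in tumour 1, tumour 2/4 and tumour 3, against 0.403 CPM in non-tumour 1 and 0.166 CPM in non-tumour 2/3/4 (log2 fold change 3.41, SE 1.22, unadjusted p = 0.0296 in edgeR). Like Ccr2 and Cx3cr1 it was highest in tumour 2/4. Sdc1, a heparan sulfate proteoglycan of hepatocytes, had a log2 fold change of -0.56 (SE 0.28).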

How the data were processed

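The authors deposited 1 table of raw read counts per gene for each of the 8 libraries. Per the file headers, featureCounts 1.6.2 assigned reads to exons of Ensembl release 95 genes with strand setting 2 and left out reads that map to several places. The submitters' processing notes name STAR 2.5.0, Subread 1.6.2 and the GRCm38 build, and whether the library kit keeps strand is not given in the sources used here. Symbols from a reference table matched 54723 of 54838 gene IDs. The members, gene lists and tests were chosen with earlier results of these data known.

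Libraries of a group whose gene counts gave a chi-square under 10 per degree of freedom (over genes whose reads in the pair came to at least 20) were summed to 1 profile. Tumour was compared with non-tumour by edgeR 4.0.16 in R 4.3.3 (TMM, filterByExpr with a minimum count of 10 and a minimum total of 15, robust glmQLFit, glmQLFTest) with p-values adjusted by Benjamini-Hochberg over every gene tested and called under 0.05. A profile's CPM is the mean of its libraries, and SE was taken as the log2 fold change over the square root of F. The procedure was tested on simulated data. Alternatives were DESeq2 1.42.0, voom of limma 3.58.1, other scalings and filters, separate libraries, a replicate block and leaving out each library or profile. Counts of groups that do not overlap, and list medians, with a profile left out were added after seeing the data.

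Given in full were the 8 tested members with the highest CPM per kb, the 5 largest differences in each direction, members of at least 1 CPM whose groups do not overlap, and tested receptors of these ligands. Of each list of genes around the chemokine system the 2 members with the lowest p-values were named. Marco, Ifng, Ndst1, Rarres2, markers of other cell types and members outside this rule were named after their values were seen. Promoter windows came from RefSeq (GRCm38.p6). The values of 1 tested receptor and 1 inducer are not reported here.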

Additional observations from a re-analysis of the deposited data

How the results depend on the processing

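The count of genes passing edgeR, 0 over the 5 profiles, was 56 over 8 separate libraries, 427 without the filter on low counts and 2 with DESeq2, and 0 to 1798 with a library or profile left out. Members passing numbered 0, but 1 without the filter and 0 to 5 with a library or profile left out, and the same counts held for the members given in full. Members with groups that do not overlap numbered 2 to 6 higher and 2 to 7 lower. The sign of some log2 fold changes turned. Over 8 libraries Ccl9 was -0.15 and Cxcl16 0.07. With the replicate block Ccl9 was -0.24, Cxcl16 0.10 and Cxcl13 0.19. With voom Ccl9 was -0.05 and Cxcr5 0.05. Cxcr3 was -0.18 with 1 library of each near-identical set, -0.01 with DESeq2 size factors, -0.02 without the filter and -0.03 with DESeq2. With a library or profile left out, log2 fold changes ran from -0.05 to 1.10 for Ackr3, -0.41 to 0.93 for Cxcr4, -0.90 to 0.12 for Ackr1, -0.43 to 0.48 for Cxcr3, -0.13 to 0.38 for Cxcl9, -1.67 to 1.30 for Cxcl13, -0.60 to 0.52 for Cxcr5, -0.04 to 0.36 for Cxcr6, -0.17 to 1.26 for Ccr2, -0.62 to 0.36 for Cxcl16, -0.46 to 0.51 for Ccl9 and -0.79 to 0.19 for Ccl6. Of 413 values of the members given in full, over 22 settings, 358 kept their sign and side of the threshold, 47 changed sign and 8 passed the test. The causes were not tested. Deviations of same-numbered tumour and non-tumour libraries had correlations of 0.35, -0.147, 0.286 and -0.124 for numbers 1 to 4. Because each group holds near-identical libraries, these values depend on each other and cannot show whether the numbers pair the samples. The labels do not say that they do, so the numbers were not taken as pairs. With the number as a replicate block edgeR called 0 of 12880 genes (2264 with an unadjusted p under 0.05) and 0 of 23 members. With 3 against 2 profiles edgeR called no gene, so even differences beyond their error, such as Cxcl11 (log2 fold change 1.42, SE 0.37), did not pass. Most receptors also had under 50 reads per library, which limits what could be detected for them.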

Other observations

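Of the genes for proteins related to chemokines, 0 passed in edgeR over the 5 profiles, none had an unadjusted p under 0.05, and DESeq2 and voom called 0. Of the 7 tested 4 had a log2 fold change above 0 and 3 below. Without non-tumour 1 the counts were 7 and 1, and without tumour 2/4 they were 2 and 5. Rarres2, which encodes chemerin, a chemoattractant made by hepatocytes, was at 383, 394 and 558 CPM in tumour 1, tumour 2/4 and tumour 3, against 348 CPM in non-tumour 1 and 408 CPM in non-tumour 2/3/4. The groups overlapped, and tumour 3 was the highest (log2 fold change 0.23, SE 0.26). Mif, an atypical chemokine, was at 43.9 CPM in tumour 1, 44.0 CPM in tumour 2/4 and 72.5 CPM in tumour 3, against 49.5 CPM in non-tumour 1 and 80.9 CPM in non-tumour 2/3/4, so the groups overlapped (log2 fold change -0.30, SE 0.32). Mif has near-identical pseudogene copies and reads that map to several places were left out, so its level is uncertain. The receptor of chemerin, Cmklr1, was at 1.59, 1.48 and 0.950 CPM in tumour 1, tumour 2/4 and tumour 3, against 4.28 CPM in non-tumour 1 and 1.14 CPM in non-tumour 2/3/4. Non-tumour 1 stood alone (log2 fold change -0.98, SE 0.60), as it did for the sums of Kupffer cell, pan-leukocyte and endothelial markers.

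Cxcl17 had 24 of its 32 reads in tumour 1. The 3 mesothelium markers summed to 22.3 CPM in tumour 1, 0.983 CPM in tumour 2/4 and 2.98 CPM in tumour 3, and to 0.907 CPM in non-tumour 1 and 0.563 CPM in non-tumour 2/3/4, with none at 0 reads in all libraries. The 6 cholangiocyte markers, which also include the mesothelium marker Krt19, summed to 200, 92.5 and 3.29 CPM in tumour 1, tumour 2/4 and tumour 3. They summed to 12.6 CPM in non-tumour 1 and 8.79 CPM in non-tumour 2/3/4. Most of the sum in tumour 1 came from Tspan8, at 190 CPM. The part of either cell type in the Cxcl17 reads was not tested.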
